A study of Mus musculus with 4 samples.

Results

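The microRNAs (miRNAs) miR-103-3p and miR-107-3p were followed in the exosome fraction released by 3T3-L1 cells, a mouse fibroblast-like line that turns into fat-storing adipocytes in culture. They were chosen by name, as the entries mmu-miR-103-3p and mmu-miR-107-3p of the array, with earlier results of these data known. Both were found, so that 2 of the 1881 mouse miRNAs on the array are described. Small extracellular vesicles were pelleted from culture medium by ultracentrifugation, and the miRNA of the pellet was labelled with the dye Cy3 and hybridised to 4 single-colour arrays. The question asked of the series was how the miRNA content of the vesicles changes as the cells mature. The D0 array holds the fraction from cells in growth medium, before induction. The arrays of D4, D12 and D16 hold the fraction 4, 12 and 16 days after the cells were moved to a first differentiation medium with 1-methyl-3-isobutylxanthine, dexamethasone and insulin, which was later replaced by a second one with insulin alone. Growth medium had low glucose and the differentiation media high glucose, and all media held fetal bovine serum depleted of exosomes. Days therefore differ in medium as well as in cell maturity, which cannot be told apart here. The RNA on an array was a pool, of 2 independent experiments by the methods and of 3 by the sample labels, and there was 1 array a day. No difference between days has a replicate check, no test was possible, and every error given is the technical error of the scanning software, which covers variation within an array only.

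miRNAs are short RNAs that lower the output of messenger RNAs, which they recognise mainly through a short stretch near their 5′ end, the seed. miR-103 and miR-107 are made from hairpins within introns of the pantothenate kinase genes, whose enzymes start the synthesis of coenzyme A, a carrier of acyl groups in fatty acid metabolism. In liver and fat of mice they are known as negative regulators of insulin sensitivity, with the caveolin gene Cav1 as a described target, and their level inside cells has been described to rise during fat cell formation.

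The mature sequences are shown because the 2 miRNAs are nearly the same molecule, which bears on how separately an array can read them. They are given 5′ to 3′ from RefSeq (GRCm38.p6), with the seed, bases 2 to 8, in capitals.

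miR-103-3p: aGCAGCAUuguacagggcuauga

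miR-107-3p: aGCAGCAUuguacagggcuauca

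Both are 23 bases long and 22 of the bases are the same. The substitution is G22C, counted from 1 at the 5′ end with the base of miR-103-3p first, so it lies far from the seed, near the 3′ end. Among 1679 mature mouse miRNA names in the RefSeq table, the seed GCAGCAU was found in these 2 only, which is 0.119% of the names. miR-103-3p has 2 hairpins, so that its signal cannot be assigned to a locus. Mir103-1 lies at chr11:35782396-35782481 on the plus strand, within Pank3, with the mature miRNA at chr11:35782447-35782469. Mir103-2 lies at chr2:131288052-131288137 on the plus strand, within Pank2, with the mature miRNA at chr2:131288103-131288125. Mir107 lies at chr19:34820687-34820773 on the minus strand, within Pank1, with the mature miRNA at chr19:34820700-34820722. The hairpins follow with the mature 3p miRNA in capitals, to show that it lies in the same arm at all 3 loci.

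Mir103-1: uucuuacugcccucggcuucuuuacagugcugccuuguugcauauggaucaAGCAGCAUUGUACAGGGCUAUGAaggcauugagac

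Mir103-2: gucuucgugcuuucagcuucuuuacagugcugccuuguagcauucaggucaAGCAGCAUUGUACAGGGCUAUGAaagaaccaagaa

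Mir107: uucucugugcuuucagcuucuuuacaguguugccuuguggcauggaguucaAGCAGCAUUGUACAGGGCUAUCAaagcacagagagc

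Both miRNAs were detected on all 4 arrays, near the lower end of what was detectable on D0 and far above it on each later day. The measure is the total gene signal, a background-subtracted intensity summed over the probes of a miRNA whose signal exceeds 3 times its error. For miR-103-3p it was 4.11 ± 0.929 on D0, 67.8 ± 5.54 on D4, 72.0 ± 5.95 on D12 and 54.9 ± 4.48 on D16. For miR-107-3p it was 4.25 ± 0.933 on D0, 49.4 ± 4.39 on D4, 58.9 ± 5.09 on D12 and 45.6 ± 3.91 on D16. In both, the D0 array was the low one and D12 the high one, and the D4 and D12 signals differed by less than 2 of their combined errors. The relative error was largest on D0, at 22.6% of the signal for miR-103-3p and 22.0% for miR-107-3p, against 8.15% to 8.89% on later days. The levels of the 2 miRNAs come from different probes and are not set against each other.

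**Figure D1:**
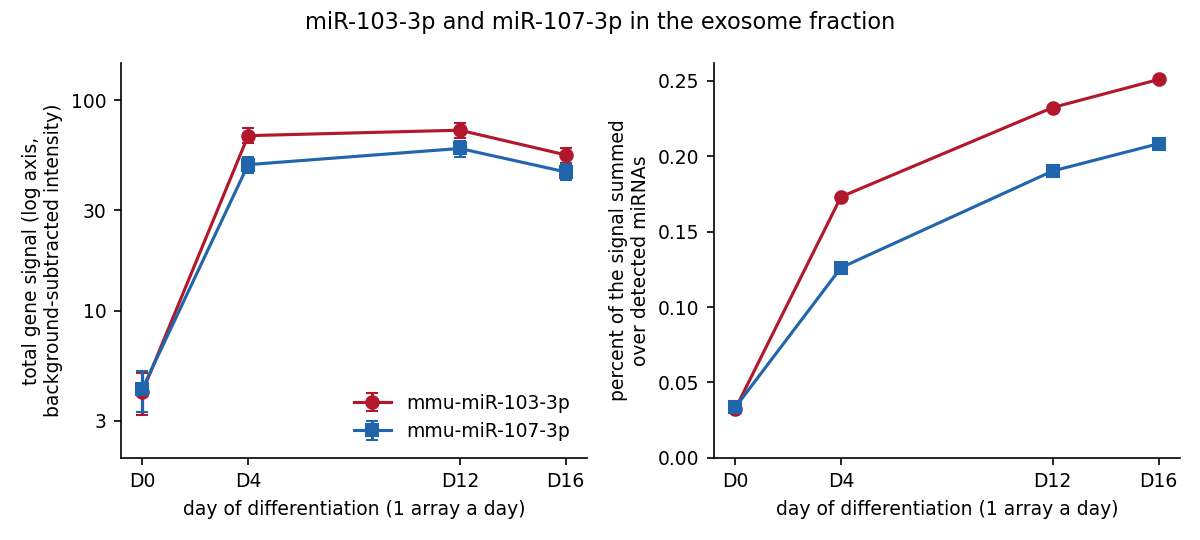
The left panel plots the total gene signal (log axis, background-subtracted intensity) of miR-103-3p (red circles) and miR-107-3p (blue squares) on the array of each day, with error bars of 1 technical error as the software gives it, and the right panel plots the same signals as percent of the signal summed over all detected miRNAs of that array. Both miRNAs go from about 4 on D0 to between 45.6 and 72.0 later, while their share goes on up to 0.251% and 0.208% on D16.

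Relative to D0, the signal of miR-103-3p was 16.5 ± 3.96 times as high on D4, 17.5 ± 4.20 times on D12 and 13.4 ± 3.20 times on D16. That of miR-107-3p was 11.6 ± 2.75 times as high on D4, 13.9 ± 3.27 times on D12 and 10.7 ± 2.53 times on D16. Each of these 6 differences amounted to between 10.1 and 11.3 combined technical errors. Between later days the changes were small beside the step from D0. From D4 to D12 the ratio was 1.06 ± 0.123 for miR-103-3p and 1.19 ± 0.148 for miR-107-3p. From D12 to D16 it was 0.763 ± 0.0886 and 0.774 ± 0.0942, a difference of 2.29 and 2.08 combined errors in the downward direction. By mean spot signals, which leave out the spot size used by the software, the D16 to D12 ratio was 0.966 and 0.979.

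The later arrays were brighter as a whole, most on D4 and least on D16, so a part of each ratio is shared with other miRNAs. Over the 283 miRNAs detected on all 4 arrays, the median log2 ratio to D0 was 1.37 on D4, 1.00 on D12 and 0.41 on D16, and the number of detected miRNAs was 329 on D0, 426 on D4, 406 on D12 and 380 on D16. The spot size used by the software, 0.780 on D4 and 0.760 on D12 against 0.6 on D0 and D16, also enters each signal. By mean spot signals, which leave it out, the median ratio to D0 was 1.84 on D4, 1.46 on D12 and 1.28 on D16. With 1 array of pooled RNA a day, more vesicles, more RNA per vesicle and more RNA labelled cannot be told apart. The 2 miRNAs stood above this shift. Their ratio was 6.68 (miR-103-3p) and 4.71 (miR-107-3p) times the median ratio of all miRNAs measured at both D0 and D4, 9.15 and 7.25 times on D12, and 10.1 and 8.14 times on D16. By size of the ratio, miR-103-3p was at position 4 of 317 miRNAs on D4, 8 of 297 on D12 and 6 of 289 on D16, and miR-107-3p at position 8, 10 and 9. After another background correction, normexp, the positions were lower, at 37, 16 and 15 for miR-103-3p and 65, 28 and 23 for miR-107-3p.

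**Figure D2:**
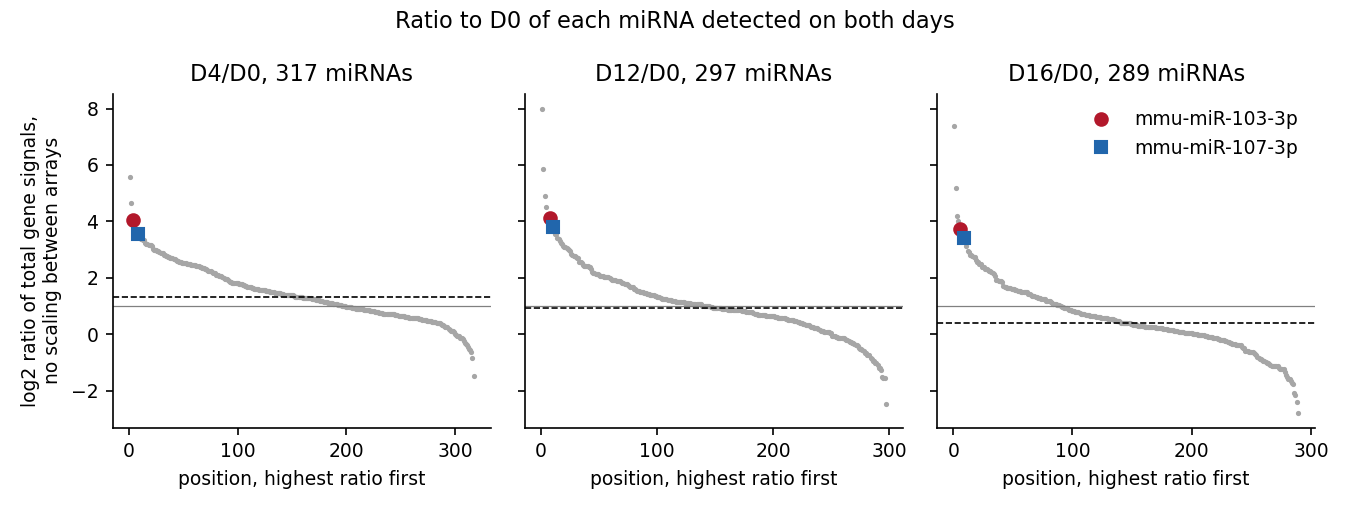
Each panel plots, for one later day, the log2 ratio of the total gene signal to D0 (no scaling between arrays) of every miRNA detected on both days, sorted from the highest, with miR-103-3p as a red circle and miR-107-3p as a blue square. The dashed line is the median of all miRNAs and the thin grey line a ratio of 2. The 2 miRNAs lie at positions 4 and 8 of 317 on D4, 8 and 10 of 297 on D12, and 6 and 9 of 289 on D16.

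A ratio above 2 alone says little before the arrays are brought to a common scale. Without scaling it was reached by 62.1% of the miRNAs detected on both days on D4, 47.8% on D12 and 31.1% on D16, the 2 miRNAs included. After each array was divided by the 75th percentile of the 283 miRNAs detected throughout, 6.62% of the miRNAs were above 2 on D4, 10.1% on D12 and 11.4% on D16, and both miRNAs were among them on each day. On this scale the ratio of miR-103-3p to D0 was 3.87 on D4, 5.32 on D12 and 5.90 on D16, and that of miR-107-3p was 2.73, 4.22 and 4.74. The median over all miRNAs detected on both days was then 0.579, 0.581 and 0.582, so a scaled ratio of 1 lies above the typical miRNA. Scaling also turned the last step. The ratio of D16 to D12 became 1.11 for miR-103-3p and 1.12 for miR-107-3p, and 1.03 and 1.05 when the arrays were scaled on 4 spike-in RNAs, so that a fall from D12 to D16 was present in the unscaled signals only among these 3. As a share of the signal summed over all detected miRNAs, miR-103-3p made up 0.0324% on D0, 0.173% on D4, 0.232% on D12 and 0.251% on D16, and miR-107-3p 0.0334%, 0.126%, 0.190% and 0.208%. By share, then, D0 was the low array and D16 the high one.

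The unscaled ratios also compare different probes. Each miRNA has 2 probes on the array, each printed as 15 spots, and on D0 only the brighter probe of each was detected and entered the sum, while on later days both were. Over the probe detected on both days, the ratio of miR-103-3p to D0 was 12.0 on D4, 13.3 on D12 and 9.80 on D16, and that of miR-107-3p was 9.23, 11.04 and 8.39. With the probe held fixed, miR-103-3p was at position 4 of 316, 6 of 297 and 6 of 289, and miR-107-3p at 11, 13 and 10. With the probe held fixed and the 75th percentile scaling, an alternative added after the data were seen, the ratios were 2.82, 4.03 and 4.33 for miR-103-3p and 2.17, 3.36 and 3.71 for miR-107-3p, all 6 still above 2.

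**Figure D3:**
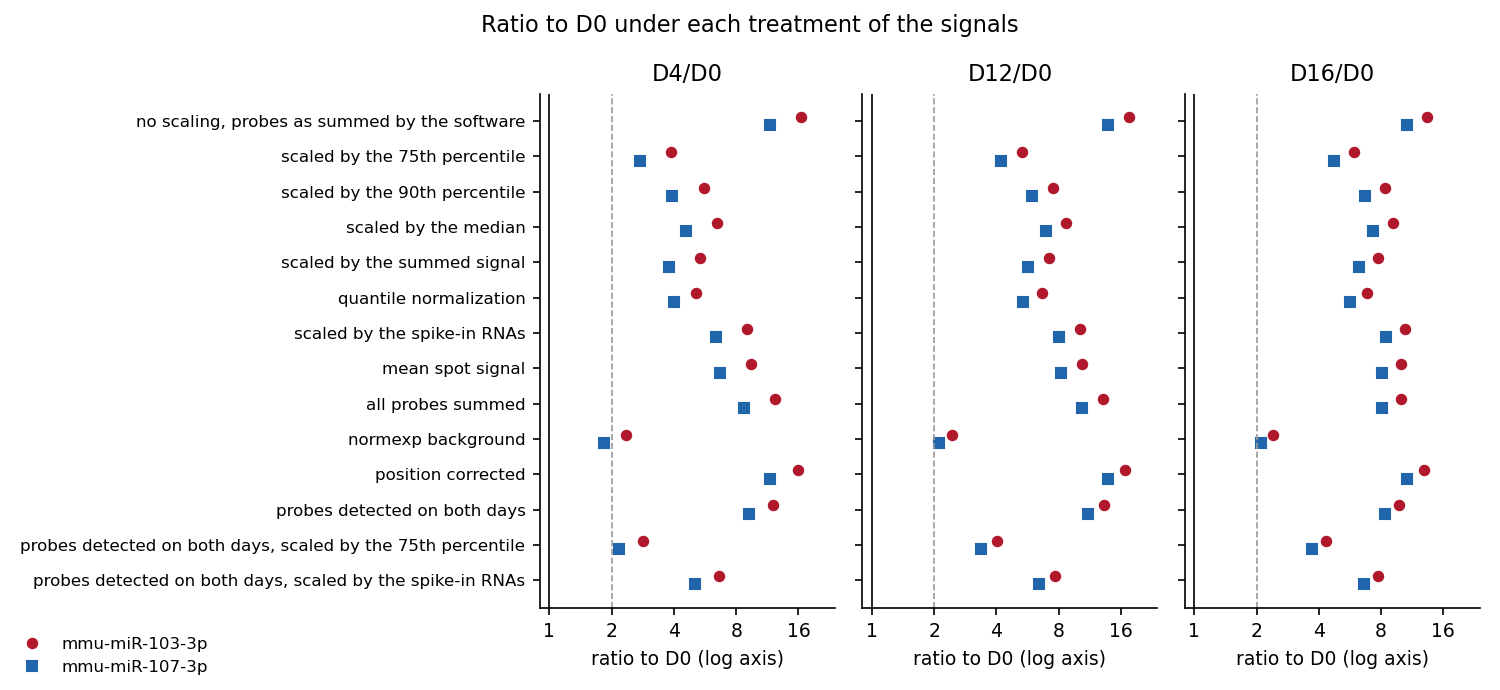
Ratio to D0 (log axis) of miR-103-3p (red circles) and miR-107-3p (blue squares) on D4, D12 and D16 under each way of treating the signals, 1 line per way, with the unscaled ratio on top. The solid line marks a ratio of 1 and the dashed line a ratio of 2. All points lie above 1, the lowest being 1.84 for miR-107-3p on D4 after normexp background correction.

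The spots of the probes show how the D0 level was reached. On the brighter probe of miR-103-3p the 15 spots on D0 ran from 10.7 over a median of 18.9 to 37.4, against a median of 180 (161.8 to 213.5) on D4, 203 (184.3 to 226.8) on D12 and 193 (152.5 to 220.3) on D16. On the brighter probe of miR-107-3p they ran from 7.17 over a median of 20.4 to 29.3 on D0, against a median of 142 (122.5 to 169.8) on D4, 174 (162.4 to 189.2) on D12 and 166 (131.1 to 184.2) on D16. No spot of a later day overlapped with a D0 spot of the same probe. The lowest later spot was at least 4.08 times the highest D0 spot on the brighter probe of miR-103-3p, and at least 4.19 times on that of miR-107-3p. On the dimmer probes it was at least 4.13 times for miR-103-3p and 1.95 times for miR-107-3p. The later arrays were brighter as a whole, and how many of all probes on the array also showed no overlap was not counted. Spots of an array share 1 hybridisation and are no replicates of a day.

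At D0 the software called 7 of 15 spots of the brighter miR-103-3p probe and 8 of 15 of the brighter miR-107-3p probe well above background, and 0 of 15 on both dimmer probes. On later days it called 15 of 15 on all 4 probes. The dimmer probe of miR-103-3p had a median spot of 7.82 on D0 against 66.9, 64.1 and 69.8 later, and that of miR-107-3p 6.90 against 37.1, 45.9 and 46.7. D0 was the low day on all 4 probes, while the order of the later days by median spot differed between the brighter and the dimmer probe of each miRNA. By probe signal, which enters the ratios, the order differed for miR-103-3p but was the same on both probes of miR-107-3p, with D12 highest and D16 lowest. Against the detection limit of the probe itself on D0, which is 3 times its technical error, the dimmer probe signal of miR-103-3p was at least 7.33-fold higher on D4, 6.95-fold on D12 and 5.83-fold on D16. For miR-107-3p the same bound was at least 4.07-fold, 4.81-fold and 3.97-fold.

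**Figure D4:**
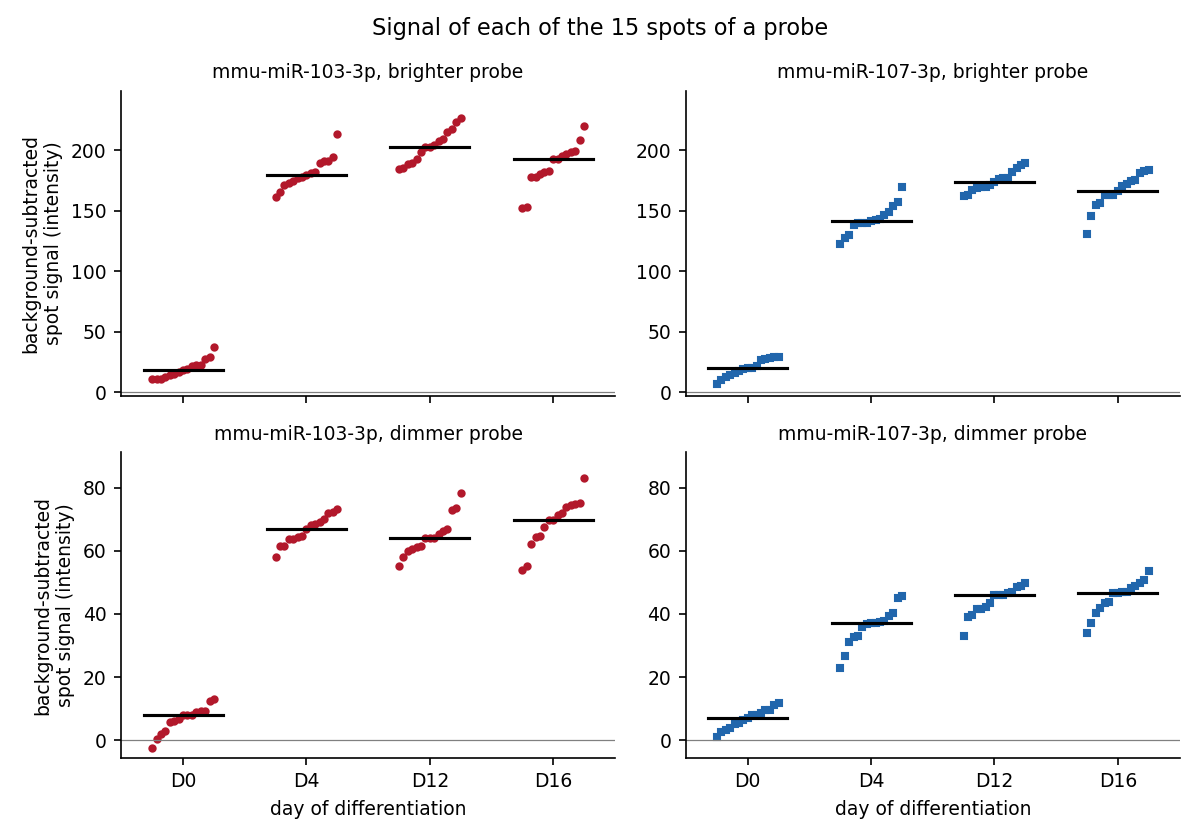
Background-subtracted signal of each of the 15 spots (points, sorted by value within a day) of the brighter probe (top) and the dimmer probe (bottom) of miR-103-3p (left, red circles) and miR-107-3p (right, blue squares) on the array of each day, with the median as a black line. In all 4 panels the D0 spots lie below every later spot, and the top and bottom panels have different vertical ranges. How many other probes of the array show the same was not counted.

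The D0 array was uneven across its surface. From left to right in 10 strips, the median deviation of a spot from its probe's median ran from -0.47 to 0.21 on the log2 scale on D0 and stayed within 0.03 of 0 on the other arrays. The spots of the 2 miRNAs followed it. At D0 the brighter probe of miR-103-3p had a median of 14.2 over 9 spots on the left and 25.4 over 6 on the right, and that of miR-107-3p 15.8 over 8 and 27.4 over 7. At D12 the same spots had medians of 204 and 201 for miR-103-3p, and 175 and 171 for miR-107-3p. After a correction for the strip, the ratio of D12 to D0 was 16.8 for miR-103-3p and 13.9 for miR-107-3p, so the unevenness moved the ratios by less than their technical error. Over all probes the median coefficient of variation among spots was 21.1% on D0 and 7.19% to 8.07% later, and no spot was saturated.

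The step from D0 was larger for miR-103-3p than for miR-107-3p on each of the 3 later days, but by about 1 technical error or less. The ratio of miR-103-3p to D0 divided by that of miR-107-3p was 1.42 on D4, 1.26 on D12 and 1.24 on D16. In log2 units the difference was 0.50 ± 0.49 on D4, 0.33 ± 0.49 on D12 and 0.32 ± 0.49 on D16, where the error is that of the software for all 4 signals and the D0 values are shared by the 3 days. A factor common to an array cancels here, so scaling by a single number leaves these values as they are. Over probes detected on both days they were 1.30, 1.20 and 1.17. The probes stand for miRNAs that differ at the base G22C alone, and how far each probe also binds the other miRNA was not tested.

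The other arms of the hairpins were below detection. miR-103-1-5p and miR-107-5p, each with 3 probes, were not detected on any day. The summed error of their probes, times 3, was 5.10 and 4.95 on D0 and 6.86 and 6.65 on D12. Detection takes only 1 probe above 3 times its own error, so a miRNA can be detected below these values. miR-103-2-5p has no entry under this name on the array. In these fractions the 3p arm is therefore the one for which a change can be described.

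The closest relatives by sequence are the miR-15/16 group, known for restraining the cell cycle. The first 7 bases of miR-103-3p and miR-107-3p, AGCAGCA, stand 1 base further in, at bases 2 to 8, in 10 of the 1679 mature miRNA names, so that the group has a shifted form of the same seed. They are shown with bases 2 to 8 in capitals for the 3 relatives that were detected on all 4 arrays.

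miR-16-5p: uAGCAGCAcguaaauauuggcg

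miR-15b-5p: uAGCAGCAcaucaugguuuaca

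miR-322-5p: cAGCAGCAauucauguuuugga

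Of 11 miRNAs listed as relatives and present on the array, 7 were detected on at least 1 day. On D0, 3 were detected, beside 329 of 1881 over the whole array. The 3 relatives had a higher signal on every later day than on D0. miR-16-5p was at 6.59 on D0, 68.6 on D4, 69.5 on D12 and 45.4 on D16. miR-15b-5p was at 14.1, 110.7, 96.5 and 63.7. miR-322-5p was at 13.1, 222, 392 and 237. The ratio of D12 to D0 was 10.6 for miR-16-5p, 6.86 for miR-15b-5p and 30.0 for miR-322-5p, with 17.5 and 13.9 for miR-103-3p and miR-107-3p between them. On the 75th percentile scale it was 3.21, 2.09 and 9.11. miR-15a-5p was not detected on D0 and was at 36.7, 69.8 and 50.7 later. On D12 it was 13.7 times the upper bound of its D0 signal, which is 3 times the summed error of its probes. miR-503-5p, whose bases 2 to 8 do not hold this stretch, miR-195a-5p and miR-497a-5p stayed dim, at 19.9, 11.7 and 6.63 on D12, and miR-1907, which the sequence table does not list, miR-6342, miR-6353 and miR-6419 were not detected on any day. The median ratio to D0 of the 3 relatives detected on D0 was 10.4 on D4, 10.6 on D12 and 6.89 on D16, beside 2.47, 1.91 and 1.32 over all miRNAs detected on both days, and 3 miRNAs that had to be detected on D0 do not stand for the whole group.

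**Figure D5:**
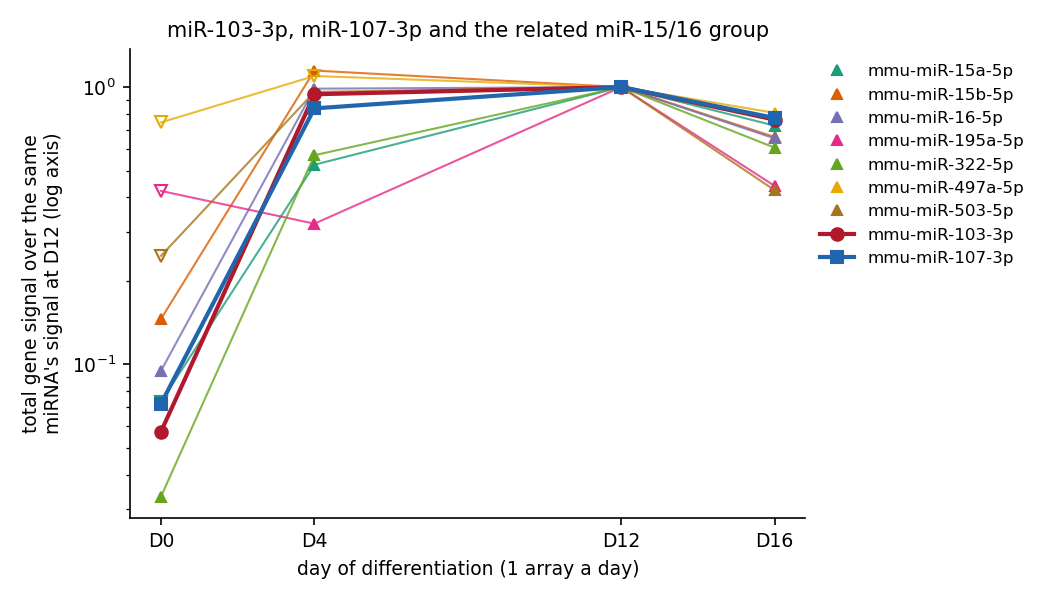
Total gene signal on the array of each day divided by the signal of the same miRNA on D12 (log axis), for miR-103-3p (red circles), miR-107-3p (blue squares) and the 7 related miRNAs detected on at least 1 day (triangles). Open symbols mark days on which a miRNA was not detected, where 3 times the summed error of its probes is drawn instead. The D0 value of miR-103-3p and miR-107-3p lies between those of miR-322-5p, with a D12 to D0 ratio of 30.0, and miR-16-5p, with 10.6.

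The miRNAs with the most similar course were found by the Euclidean distance over the 3 log2 ratios to D0, among the 283 miRNAs detected throughout. Nearest to miR-103-3p was miR-26a-5p, at a distance of 0.24, followed by let-7c-5p at 0.59, miR-26b-5p at 0.63, miR-106b-5p at 0.64 and miR-107-3p at 0.68. The signal of miR-26a-5p was 4.52 on D0, 64.5 on D4, 85.6 on D12 and 61.2 on D16. Nearest to miR-107-3p were miR-193b-3p at 0.34, miR-199b-5p at 0.36, let-7c-5p at 0.42, miR-106b-5p at 0.48 and miR-26a-5p at 0.63, with miR-103-3p in place 7. The signal of miR-193b-3p was 2.63 on D0, 26.6 on D4, 43.6 on D12 and 26.6 on D16. All these miRNAs share the same D0 array. Of the neighbours, miR-26a-5p, miR-26b-5p, miR-106b-5p and miR-193b-3p also had 1 of their 2 probes detected on D0 and both on D12, whereas let-7c-5p and miR-199b-5p had both detected on D0.

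Of 16 other miRNAs described as rising during fat cell formation, 5 were detected on D0, 13 on D4, 15 on D12 and 14 on D16. Over the whole array, 329 of 1881 miRNAs were detected on D0, 426 on D4, 406 on D12 and 380 on D16. Among the 5, which passed through a detection on D0, all were above a ratio of 2 on D4 and D12 and 4 on D16, where 62.1%, 47.8% and 31.1% of all miRNAs detected on both days were above 2 without scaling. They had a median ratio of D12 to D0 of 16.6, beside 1.91 over all miRNAs. The highest was miR-26b-5p at 22.6 and the lowest miR-21a-5p, which is abundant in many cell types, at 2.47. On the 75th percentile scale the D12 median of the 5 was 5.04 and miR-21a-5p was at 0.750, beside 0.581 over all miRNAs detected on both days. On that scale 4 of the 5 were above 2 on each later day, against 6.62%, 10.1% and 11.4% of all miRNAs. Of 8 miRNAs described as falling, 3 were detected on D0, 7 on D4, 5 on D12 and 4 on D16. Among those not detected on D0, miR-155-5p was at 33.9 and miR-222-3p at 3.96 on D4, and neither was detected later. miR-31-5p was at 18.3 on D4, 4.36 on D12 and not detected on D16. miR-27b-3p was at 4.01, 4.18 and 3.73, and miR-130b-3p was not detected on any day. The 3 detected on D0 had a higher signal on D12 than on D0. The ratio was 3.44 for miR-27a-3p and 9.30 for miR-130a-3p, both known to repress the adipocyte regulator Pparg, and 3.83 for miR-221-3p. On the 75th percentile scale these were 1.05, 2.83 and 1.16, all above the 0.581 of all miRNAs. On that scale miR-103-3p was at 5.32 and miR-107-3p at 4.22.

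The labelled cell type was checked on miRNAs of mesenchymal cells, of which 4 of 6 were detected on D0 and 5 of 6 later, with a summed signal of 108.8 on D0 and 566.8 to 989.6 later. miR-199a-3p, a defining marker, was at 62.8 on D0 and 551.4 on D12, while miR-145a-5p was not detected on any day. None of 4 miRNAs of striated muscle and none of 4 of epithelium was detected on any day. Of all 1881 miRNAs on the array, 329 were detected on D0 and 380 to 426 later. At such a share, lists of 4 say little about these cell types. Markers of red blood cells were also lowest on D0 and highest on D12. Of their 5 listed markers 4 were on the array, with 1 detected on D0, 3 on D4, 4 on D12 and 3 on D16, and a summed signal of 9.40, 468, 2528 and 1649. It was nearly all miR-451a, made in red cell precursors, at 9.40 on D0, 442.6 on D4, 2400 on D12 and 1559 on D16. Of 6 markers of leukocytes, endothelium and liver, which are also found in serum, 0 were detected on D0, 2 on D4 and 5 on D12 and D16. Their summed signal was 30.2 on D4, 146 on D12 and 123 on D16. By summed signal without scaling, both lists were highest on D12. Within the second list, miR-126a-3p was at 54.0 on D12 and 59.9 on D16. The part of RNA from such cells or from serum in the signals of miR-103-3p and miR-107-3p was not tested.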

How the data were processed

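Single-colour Agilent mouse miRNA arrays of the exosome fraction were analysed, 1 a day, and each was assigned to its day by the culture period in the labels. The deposited values are intensity, written by the scanning program Feature Extraction (version 11.0.1.1), from which local background had been taken off and which the authors had not brought to a common scale. The deposited total gene signal was checked to be the sum over the probes whose signal exceeds 3 times their error, and a miRNA with no such probe is listed at 0.1 and counted as not detected. The software estimated the effective spot size at 0.780 (D4) and 0.760 (D12) and took its default of 0.6 at D0 and D16. This factor enters each signal.

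The unscaled ratio to D0 was taken as the main value, with the software's errors propagated. The methods describe division by the D0 signal, and any scaling of the arrays before it is not given in the sources used here, so the unscaled ratios do not stand for those of the study. With 1 array a day no test was run and no p-value is given. A miRNA was counted above a ratio of 2 among those detected on both days. Each array was alternatively divided by its median, 75th percentile or 90th percentile over the miRNAs detected throughout, or by the signal summed over all miRNAs detected on that array. Further alternatives were quantile normalization, 4 spike-in RNAs, mean spot signals, the sum of all probes, normexp background correction (offset 50), correction for position in 10 strips, and the probes detected on both days. Their combination with scaling was added after the data were seen. Python 3.11.15, numpy 2.4.6, pandas 2.3.3, R 4.3.3 and limma 3.58.1 were used. The 75th percentile scaling of ratios and the search for nearest courses were tested on simulated data in which every miRNA was detected. The other alternatives, the error propagation and the loss of a probe at D0 were not tested in this way.

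The members and lists were chosen with earlier results of these data known. Named were the 2 miRNAs, the other arms of their hairpins, relatives by sequence, the 5 nearest in course for each, and, of lists with more than 5 detected members, those with the highest and lowest ratio of D12 to D0. Where only the members detected at D0 have a ratio, these were named. Sequences and hairpin positions are those of RefSeq GRCm38.p6, matched by name for 1608 of the 1881 miRNAs. The build of the array design differs, and none of its coordinates were used. Probe sequences were not analysed here.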

Additional observations from a re-analysis of the deposited data

How the results depend on the processing

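All ratios of miR-103-3p and miR-107-3p to D0 stayed above 1 under every alternative run, and only that of miR-107-3p at D4 under normexp background correction, 1.84, was below 2. Their size depended on the scaling. In the order D4, D12 and D16, the ratios of miR-103-3p and then of miR-107-3p were 3.87, 5.32, 5.90 and 2.73, 4.22, 4.74 after division by the 75th percentile. The 90th percentile gave 5.57, 7.54, 8.36 and 3.93, 5.98, 6.72. The median gave 6.47, 8.72, 9.15 and 4.57, 6.91, 7.35. The summed signal gave 5.35, 7.18, 7.76 and 3.78, 5.69, 6.24. Quantile normalization gave 5.09, 6.67, 6.88 and 4.00, 5.38, 5.67. Spike-in RNAs gave 9.04, 10.2, 10.5 and 6.37, 8.05, 8.43. Mean spot signals, which leave out the effective spot size, gave 9.47, 10.3, 9.97 and 6.71, 8.21, 8.04, and the sum of all probes 12.3, 13.1, 9.97 and 8.71, 10.4, 8.04. Normexp, whose offset of 50 is larger than any D0 spot of the 2 miRNAs, gave 2.35, 2.44, 2.40 and 1.84, 2.11, 2.11. It also lowered their positions by ratio, to 37, 16, 15 and 65, 28, 23. Probes detected on both days gave 12.0, 13.3, 9.80 and 9.23, 11.04, 8.39. These became 2.82, 4.03, 4.33 and 2.17, 3.36, 3.71 after 75th percentile scaling, and 6.59, 7.70, 7.70 and 5.06, 6.41, 6.59 after spike-in scaling, both chosen after seeing the data. Correction for position moved no ratio beyond its technical error. The ratio of miR-103-3p to D0 over that of miR-107-3p stayed between 1.14 and 1.42 and moved by less than its technical error under all alternatives run.

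No paired analysis was possible because there was 1 array a day, and for the same reason no array was left out. The D0 signals, at a relative error of over 20% and with fewer than 9 of 15 spots well above background on any probe, limit the precision of every ratio. The number of arrays limits what can be said of the days.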
